A study of Mus musculus with 56 samples.

Results

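Accessible chromatin at the nuclear genes of the mitochondrial respiratory chain and ATP synthase was examined in clones of granulocyte-monocyte progenitors (GMP). The genes were chosen by symbol: every autosomal protein-coding gene whose symbol begins with Nduf, Uqcr, Uqcc, Cox4, Cox5, Cox6, Cox7, Cox8 or Atp5, together with Sdha, Sdhb, Sdhc, Sdhd and Cyc1. They are 94 of 21728 protein-coding genes. Each was read as a locus, the summed counts of every peak whose centre lies no more than 10 kb from the transcription start site (TSS), and 93 had such a peak, of 18691 genes in all. Cox8c had none. A locus reports open DNA, not transcription.

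The assay was bulk ATAC-seq (adapter insertion by a transposase into accessible DNA) on 56 libraries of 1000 cells. The cells were single-GMP clones of Tet2 fl/fl genotype, immortalised with Hoxb8 fused to an oestrogen receptor domain (Hoxb8-ER) and kept as progenitors by 0.5 µM beta-estradiol. Each of 28 clones gave a Tet2 knockout (KO) line, made with Cre, and a control line, given GFP instead. An integrase-defective lentivirus delivered either protein at a multiplicity of infection of 200. Stem cell factor (SCF) at about 100 ng/ml was the cytokine of 24 clones, from derivation on, and GM-CSF at 10 ng/ml that of 4 (clones 19 to 22). All groups thus share the floxed allele, the immortalising transgene, estradiol and a lentiviral dose, and differ in Cre and in the cytokine. Per the study, GM-CSF clones are held at a more mature stage than SCF clones, so cytokine and stage cannot be told apart. Every line is 1 clone. Clones 20 to 22 carry SCF in their titles but GM-CSF in the treatment field, the library names and the design text, and were placed with GM-CSF.

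The respiratory chain passes electrons from NADH (complex I) and succinate (complex II) through complex III to cytochrome c oxidase (complex IV), and ATP synthase (complex V) uses the proton gradient that results. Mitochondrial DNA encodes only a few subunits, so most subunits and all assembly factors come from nuclear genes, whose compact promoters are known to bind NRF1, GABP, YY1, ERR and SP factors. In progenitors of the blood, oxidative phosphorylation is known to rise as cells leave quiescence and differentiate. Tet2 oxidises 5-methylcytosine, a step towards its removal from DNA.

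Depth, as total counts in peaks, was 102302 to 1042973 in SCF control lines and 130049 to 1079233 in the KO lines of these clones. GM-CSF control lines had 88234 to 766838 and their KO lines 39379 to 468878. A library with under 50% of the median total occurred in 6 clones: 3, 4, 13, 19, 20 and 27. Of 564 library pairs within groups, 3 did not differ beyond sampling noise: KO lines 13 and 16, control lines 19 and 20, and KO lines 19 and 20. For clones 13 and 16, the 2 control libraries were clearly told apart (chi-square test, p = 6.2e-39, chi-square per degree of freedom 1.17). The libraries of clones 19 and 20 hold only 39379 to 114885 counts, so a real difference between these clones could go unseen. The labels name 13, 16, 19 and 20 as separate clones, so each was kept. Counts of member loci without clone 13, 19 or 20 are given with the comparisons that use these clones. All 12 GMP marker loci had peaks, as did the loci of every other marker list. The Tet2 locus had 31.1 ± 11.2 CPM in SCF control and 32.98 ± 9.70 CPM in SCF KO lines, 36.3 ± 3.39 CPM in GM-CSF control and 22.6 ± 16.2 CPM in GM-CSF KO lines (n = 24, 24, 4 and 4), which does not check the deletion, since the peaks need not lie in the floxed part.

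Promoter sequences of 7 members are shown, chosen among the loci that the comparisons name. They were read from RefSeq (GRCm38.p6), run 5′ to 3′ on the strand of the gene, from 250 bases before the start to 50 bases from it, and capitals mark matches, on either strand, to the motifs described in the next paragraph.
Uqcc1 (chr2:155930261-155930560, minus strand): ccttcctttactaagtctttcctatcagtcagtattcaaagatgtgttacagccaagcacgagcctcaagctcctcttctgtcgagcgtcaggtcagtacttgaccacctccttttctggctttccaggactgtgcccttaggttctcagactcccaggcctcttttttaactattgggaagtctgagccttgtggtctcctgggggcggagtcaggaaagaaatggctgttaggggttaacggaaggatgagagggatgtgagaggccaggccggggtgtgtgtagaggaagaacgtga
Cox6a1 (chr5:115348909-115349208, minus strand): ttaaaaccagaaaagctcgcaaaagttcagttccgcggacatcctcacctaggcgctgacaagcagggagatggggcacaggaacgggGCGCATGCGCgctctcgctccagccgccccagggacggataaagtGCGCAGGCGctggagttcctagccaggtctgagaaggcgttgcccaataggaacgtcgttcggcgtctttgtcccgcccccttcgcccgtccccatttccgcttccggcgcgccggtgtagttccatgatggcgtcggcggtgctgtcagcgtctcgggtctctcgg
Ndufa8 (chr2:36049289-36049588, minus strand): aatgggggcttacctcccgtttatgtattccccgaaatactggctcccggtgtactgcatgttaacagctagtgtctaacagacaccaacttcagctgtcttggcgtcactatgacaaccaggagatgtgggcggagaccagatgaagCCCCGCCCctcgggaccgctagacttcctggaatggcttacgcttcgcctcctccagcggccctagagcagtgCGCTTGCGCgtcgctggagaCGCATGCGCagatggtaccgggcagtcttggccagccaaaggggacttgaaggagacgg
Sdha (chr13:74350191-74350490, minus strand): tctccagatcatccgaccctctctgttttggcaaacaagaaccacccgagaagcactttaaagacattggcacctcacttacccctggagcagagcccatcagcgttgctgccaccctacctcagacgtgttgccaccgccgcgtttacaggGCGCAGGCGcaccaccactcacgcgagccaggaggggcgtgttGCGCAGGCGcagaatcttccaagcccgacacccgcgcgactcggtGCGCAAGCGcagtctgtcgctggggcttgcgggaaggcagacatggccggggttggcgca
Cox7a2 (chr9:79759804-79760103, minus strand): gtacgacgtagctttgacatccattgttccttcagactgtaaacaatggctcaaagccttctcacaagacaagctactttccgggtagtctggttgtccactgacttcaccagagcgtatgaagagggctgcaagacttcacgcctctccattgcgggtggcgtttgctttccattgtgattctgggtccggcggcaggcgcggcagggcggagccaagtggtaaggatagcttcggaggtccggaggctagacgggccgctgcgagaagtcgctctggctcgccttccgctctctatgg
Ndufb7 (chr8:83566508-83566807, plus strand): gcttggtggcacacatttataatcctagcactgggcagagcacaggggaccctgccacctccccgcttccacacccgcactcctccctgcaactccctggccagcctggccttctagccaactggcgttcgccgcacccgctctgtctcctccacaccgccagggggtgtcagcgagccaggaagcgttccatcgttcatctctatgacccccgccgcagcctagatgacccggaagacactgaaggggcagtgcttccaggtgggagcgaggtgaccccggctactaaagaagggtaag
Ndufs7 (chr10:80249199-80249498, plus strand): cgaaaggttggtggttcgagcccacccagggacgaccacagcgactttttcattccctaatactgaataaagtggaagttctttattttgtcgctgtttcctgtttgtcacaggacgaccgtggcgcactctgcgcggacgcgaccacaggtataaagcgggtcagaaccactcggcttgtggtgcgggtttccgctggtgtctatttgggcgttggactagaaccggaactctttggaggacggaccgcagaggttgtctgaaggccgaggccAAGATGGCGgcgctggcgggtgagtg
The windows of Cox6a1 and Sdha each hold 3 overlapping or separate NRF1 matches and that of Ndufa8 holds 2 beside an SP match. The window of Ndufs7 holds 1 YY1 match. No motif searched is in the windows of Uqcc1, Cox7a2 and Ndufb7. The promoter peak of Uqcc1, which its window covers only in part, does hold 1 NRF1 match. Uqcrq has no entry in the RefSeq promoter table. Sdha is shown although it did not pass in the main comparisons. Atp5s, Ndufc1 and Ndufs8 passed for the cytokine in KO lines and are not shown. The windows of Atp5s, Ndufc1 and Ndufs8 hold 1 SP, 1 YY1 and 1 NFY match in turn, and no NRF1 match.

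Motifs were searched as fixed letters on both strands in the promoter peak nearest the TSS, which lay within 1 kb for 91 members. The letters GCGCANGCG, a core of the NRF1 site, were in 25 of 91 members' peaks (27.5%) and in 11.1% of all 15247 such promoter peaks. The YY1 letters AAGATGGCG were in 11.0% against 2.75%, at Atp5h, Atp5j2, Ndufa2, Ndufa9, Ndufc1, Ndufs4, Ndufs6, Ndufs8, Uqcrc1 and Uqcrh. The letters CAAGGTCA, bound by the estrogen-related receptors (ERR), were in 5.49% against 0.912%, at Atp5g3, Atp5l, Cox8a, Sdhd and Uqcr10. These 3 motifs were thus more frequent at the members than over all promoter peaks. The GABP and other ETS letters CCGGAAGT were in 8.79% against 6.36%, and the CRE letters TGACGTCA in 4.40% against 2.89%. The SP letters GGGCGGGG were in fewer members' peaks, 18.7% against 28.0%, as were the NFY letters CCAATCA (5.49% against 8.49%), and the E-box CACGTG was about as frequent (8.79% against 9.58%). At least 1 of NRF1, ETS and YY1 was in 41.8% of the members' peaks and 18.4% of all. The nearest peak is not always the main one: at Atp5f1 it held 30 of the 1404 counts of the locus. In the strongest peak within 1 kb instead, NRF1 was in 26.4% against 11.2%, YY1 in 12.1% against 2.78% and SP in 22.0% against 28.3%. No motif changed order there. A palindromic NRF1 site matches on both strands and then counts as overlapping matches, and the motifs of different factors may overlap too. Median GC content was 61.5% in the members' peaks and 63.1% in all, and the median ratio of observed to expected CpG was 0.846 against 0.75. In RefSeq promoters, which 76 members have, the NRF1 letters were in 28.9% against 6.25% of all 32851, the ETS letters in 6.58% against 3.89%, YY1 in 9.21% against 1.4%, ERR in 6.58% against 1.56%, CRE in 5.26% against 1.79%, SP in 23.7% against 17.6%, NFY in 6.58% against 7.82% and the E-box in 9.21% against 7.15%. SP and the E-box thus changed order with the set of sequences, and the RefSeq set is not limited to promoters with a peak. A match is a description of the letters and not a bound site.

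**Figure D1:**
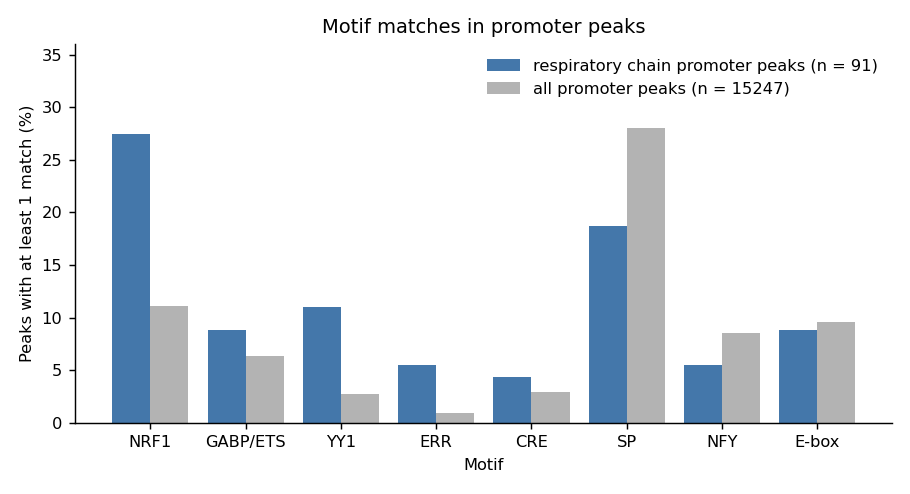
Bars give the percent of promoter peaks (y axis, from 0) that hold at least 1 match to each of 8 motifs (x axis), for 91 members and for all 15247 promoter peaks. The blue bars stand above the grey ones for NRF1 (27.5% against 11.1%), YY1 (11.0% against 2.75%) and ERR (5.49% against 0.912%), and below for SP (18.7% against 28.0%).

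The members are mostly promoter loci with close neighbours. Promoter peaks, those within 1 kb of a TSS, held a median of 84.6% of a member's counts and 70.6% of a locus's counts over all loci. A protein-coding TSS on the other strand lay within 1 kb of 33 of 94 members (35.1%), against 10.9% of all genes. Of the 93 members with a peak, 72.0% shared at least 1 with another locus (42.7% of all loci) and 42 shared all of them, so that the counts of these 42 cannot be told apart from those of their neighbours. Between clones the members varied by a median biological coefficient of variation of 0.0743 within groups of control lines, against 0.0835 over all loci tested.

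Levels were compared in CPM (counts scaled to a common library total) over windows of the same length. The median member had 51.1 CPM in SCF controls, and the median locus 30.5 CPM. Among the 7 core subunits of complex I the median was 72.2 CPM, from 26.1 CPM at Ndufs3 to 131 CPM at Ndufs8, both of the arm that carries the iron-sulphur clusters. The 29 accessory subunits had a median of 50.4 CPM, from 6.20 CPM at Ndufs4 to 142 CPM at Ndufa6, and the 8 assembly factors a median of 38.1 CPM, from 10.1 CPM at Ndufaf1 to 166 CPM at Ndufaf3. The range within complex I was thus wider than the differences between its classes. Ndufa4 and Ndufa4l2 are placed with complex I by symbol, although the Ndufa4 protein is known as a subunit of complex IV.

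The 4 subunits of complex II, succinate dehydrogenase, had a median of about 40 CPM, from 35.4 CPM at the flavoprotein Sdha to 77.2 CPM at the iron-sulphur protein Sdhb. Complex III had a median of 49.5 CPM over 9 loci, from 15.9 CPM at Uqcrb to 185 CPM at Uqcr11, and its 3 assembly factors a median of 57.5 CPM, from 56.4 CPM at Uqcc2 to 106 CPM at Uqcc3. Complex IV was lowest, with a median of 32.97 CPM over 16 loci, from 0 at Cox7b2 to 84.0 CPM at Cox8a. Complex V had a median of 67.4 CPM over 17 loci, from 25.1 CPM at Atp5l to 136 CPM at Atp5d, where 12 of 13 peaks are shared with Cbarp or Midn. Of the 5 lowest loci of complex IV, 4 were tissue-restricted isoforms, described next, and the other was the general subunit Cox6c at 18.1 CPM.

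**Figure D2:**
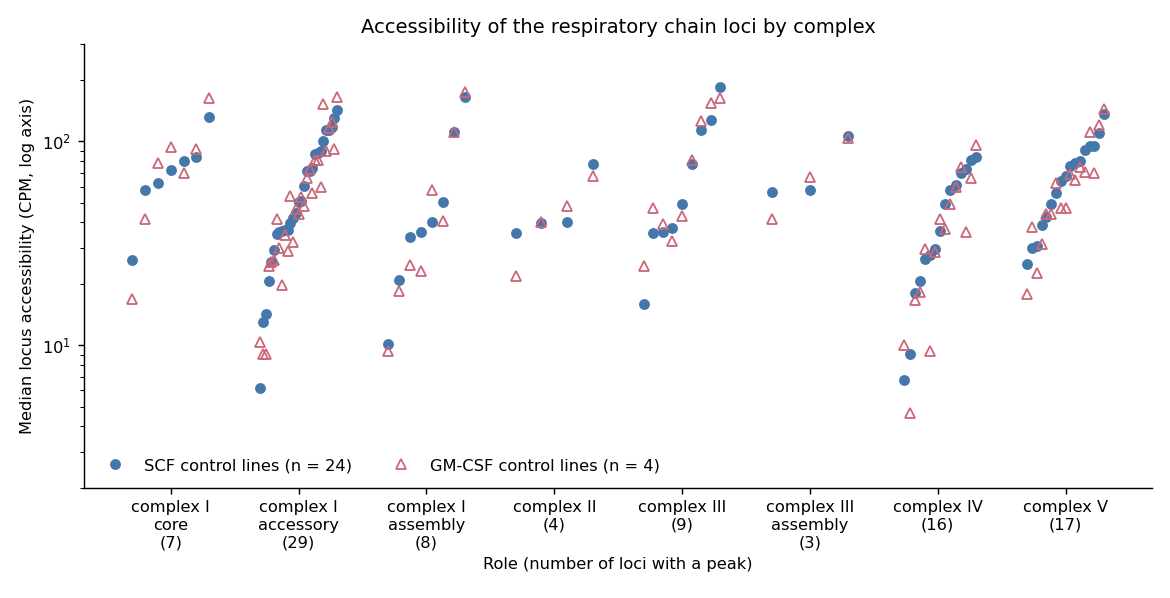
Each point is the median CPM of 1 locus (y axis, log scale) by role (x axis), in 24 SCF control lines (filled circles) and 4 GM-CSF control lines (open triangles). Loci are ordered within a role by their SCF median, a median of 0 (Cox7b2) cannot be drawn on the log axis, and medians run from 6.20 CPM at Ndufs4 to 185 CPM at Uqcr11 in SCF.

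Several subunits of complex IV have a second gene used in muscle, lung, testis or another tissue. Cox4i2, the lung isoform of the largest nuclear subunit, had 9.87 ± 5.25 CPM (SD, n = 24 SCF control lines), and its general partner Cox4i1 had 69.9 ± 11.3 CPM. Cox6a2, of heart and skeletal muscle, had 7.75 ± 5.91 CPM beside 80.5 ± 17.5 CPM at Cox6a1. Cox7b2 had 1.02 ± 2.08 CPM beside 38.7 ± 9.88 CPM at the X-linked Cox7b, and Cox8b had 22.6 ± 9.39 CPM beside 84.3 ± 12.4 CPM at Cox8a. In these 4 pairs the general gene was higher in 24 of 24 SCF control lines. The other pairs lay closer. Cox7a1, of muscle, had 46.5 ± 11.6 CPM and Cox7a2 had 70.3 ± 17.0 CPM, with Cox7a2 higher in 22 of 24 lines. Cox6b2, of testis, had 23.9 ± 9.07 CPM and Cox6b1 had 30.6 ± 14.1 CPM, with Cox6b1 higher in 17 of 24. Ndufa4l2, induced by hypoxia, went the other way with 73.2 ± 18.6 CPM beside 38.6 ± 11.2 CPM at Ndufa4, but 14 of its 15 peaks were shared with Nxph4, Shmt2 or Stac3 and its own promoter peak held 63 of its 1648 counts. The promoter peak of Ndufa4 held 848 of 905, and all 4 peaks of Ndufa4 were shared with Phf14. Among the other general genes, Cox4i1 shared 10 of 10 peaks with Emc8 or Gm27021 and Cox6b1 shared 4 of 4 with Etv2 or Upk1a, so these values cannot be told apart from those of the neighbours.

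Whether loss of Tet2 changed these loci was asked in the 24 SCF clones, with control and KO line of a clone as a pair. Of 79 members tested, Uqcrq rose and Uqcc1, Cox6a1 and Ndufa8 fell (edgeR quasi-likelihood test, adjusted p under 0.05). These are 1.27% higher and 3.8% lower, beside 4.77% higher and 1.45% lower among all 10409 loci tested. Of all members tested, 54 (68.4%) had a lower value in KO, against 53.4% of all loci, and the median log2 difference was −0.07 against −0.01 over all. With a 50 kb window 48 of 92 members were lower, with a median of −0.006 against −0.010 over all loci, and in clones 23 to 29 alone 44 of 79, with a median of −0.03. At an unadjusted p under 0.05 there were 16 members (20.3%) and 20.0% of all loci.

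Uqcrq (chr11:53427922-53430831) encodes a small subunit of complex III. It had 66.4 CPM at the lowest, 114 CPM at the median and 153 CPM at the highest in SCF control lines, and 86.8, 145 and 192 CPM in KO lines. The groups overlapped, but the KO line was higher in 20 of 24 pairs, with means of 115 ± 21.9 CPM and 144 ± 29.0 CPM (SD, n = 24). The log2 change was 0.27 ± 0.07 (SE), edgeR adjusted p = 0.00275. All 9 of its peaks also belong to the loci of Gdf9 or Leap2.

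Uqcc1 (chr2:155846894-155930310) encodes an assembly factor needed for cytochrome b of complex III, and none of its 4 peaks was shared. Its lowest, median and highest values were 37.98, 57.5 and 79.8 CPM in control lines and 27.7, 48.7 and 59.1 CPM in KO lines. The KO line was lower in 20 of 24 pairs, and the highest KO line lay near the control median. The means were 58.7 ± 10.1 CPM and 46.4 ± 9.20 CPM, and the log2 change was −0.37 ± 0.09, edgeR adjusted p = 0.00582.

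Cox6a1 (chr5:115345642-115348981), the general isoform of a small subunit of complex IV, had 44.7, 81.3 and 109 CPM at the lowest, median and highest in control lines and 27.7, 65.8 and 104 CPM in KO lines. The KO line was lower in 20 of 24 pairs although the ranges overlapped widely. The means were 80.5 ± 17.5 CPM and 65.2 ± 19.0 CPM, a log2 change of −0.29 ± 0.08, edgeR adjusted p = 0.0108. It shares 6 of its 8 peaks with Gatc or Triap1, and with a window of 50 kb its log2 change was −0.01.

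Ndufa8 (chr2:36036326-36049406), an accessory subunit of complex I, had 20.6, 41.9 and 73.8 CPM at the lowest, median and highest in control lines and 9.25, 36.5 and 58.2 CPM in KO lines. It was lower in only 16 of 24 KO lines. The means were 42.4 ± 12.1 CPM and 34.8 ± 13.5 CPM, a log2 change of −0.38 ± 0.12, edgeR adjusted p = 0.0333. All 9 peaks are shared with Morn5.

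**Figure D3:**
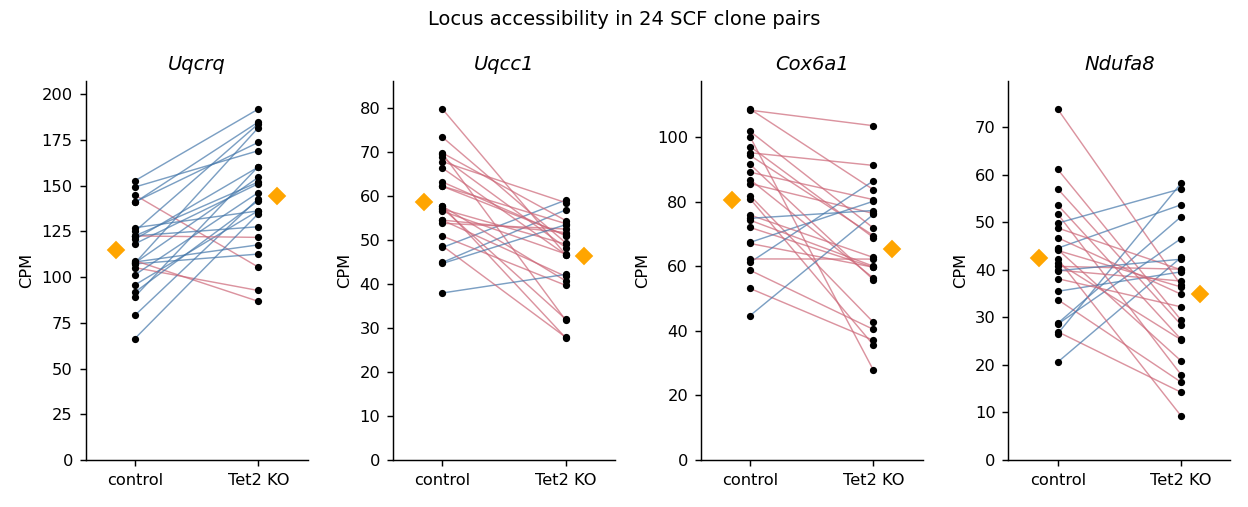
CPM (y axis, from 0) of the 4 members that passed the test, in the control and KO line of 24 SCF clones; lines join the lines of a clone (blue higher, red lower in KO) and orange diamonds are group means. Uqcrq rises in 20 of 24 pairs, Uqcc1 and Cox6a1 fall in 20 of 24, and Ndufa8 falls in 16 of 24.

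No other member passed. The next by adjusted p were Atp5e, the epsilon subunit of ATP synthase, with 0.21 ± 0.07 on the log2 scale (edgeR adjusted p = 0.0553), and Sdha, with −0.37 ± 0.13 (edgeR adjusted p = 0.0701). Sdha had 35.8 ± 11.6 CPM in control and 26.3 ± 9.79 CPM in KO lines and was lower in 18 of 24 pairs. All 4 complex II loci and all 3 complex III assembly loci had values below 0, with medians of −0.19 and −0.17. The medians of the other roles were −0.05 for complex I core, −0.07 for its accessory subunits, 0.01 for its assembly factors, −0.06 for complex III, −0.04 for complex IV and −0.05 for complex V. The filter on low counts removed Ndufb3, Ndufaf1, Ndufaf5, Cox4i2, Cox7b2, Ndufa9, Cox6b2, Ndufc2, Cox6a2, Cox8b, Atp5l, Uqcrb, Ndufs4 and Cox6c from this comparison.

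Leaving out clone 13, whose KO library did not differ from that of clone 16 beyond sampling noise, left the 4 calls in place and let Atp5e pass as well, with edgeR adjusted p from 0.0025 to 0.0162 for the 4 and 0.0396 for Atp5e. In clones 1 to 18 alone none of the 4 passed (edgeR adjusted p from 0.0673 at Uqcc1 to 0.113 at Ndufa8), 0 members rose and the 1 that fell was another member. In clones 23 to 29 alone 0 rose and 0 fell. The 4 loci lay on the same side of 0 in both sets. The share of all counts in promoter peaks had a median of 43.5% in SCF controls and 46.1% in SCF KO lines. With that share as a covariate 1 member rose and 2 fell. Under upper-quartile scaling, which moved the median over all loci to −0.05, 1 rose and 6 fell, and over all loci 331 rose and 257 fell, against 497 and 151.

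At single peaks, 83 of the members' peaks were tested and 2 rose and 1 fell at an adjusted p of at most 0.01, beside 2.21% higher and 0.28% lower of all 7871 peaks tested. The promoter peak of Uqcc1 (chr2:155930022-155930322) had a mean of 52.9 ± 8.33 CPM in SCF control lines and 41.3 ± 9.30 CPM in KO lines and was lower in 19 of 24 pairs (log2 −0.43 ± 0.10, edgeR adjusted p = 0.00175). That of Uqcrq (chr11:53430795-53431095) had 103 ± 24.8 CPM and 134 ± 30.0 CPM and was higher in 20 of 24 (0.26 ± 0.07, edgeR adjusted p = 0.0084). A peak 6827 bases upstream of Ndufa7 (chr17:33817595-33817895), shared with Kank3 and Rps28, had 52.8 ± 10.4 CPM and 67.7 ± 18.6 CPM and was higher in 18 of 24 (0.33 ± 0.09, edgeR adjusted p = 0.00819). The promoter peak of Cox6a1 (chr5:115348919-115349219) had −0.35 ± 0.11 with an edgeR adjusted p of 0.0309, above the limit for peaks. No peak rose under upper-quartile scaling, where 1 fell, and with the promoter share as a covariate 0 rose and 0 fell.

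Most of the members' promoter peaks lay slightly below 0. Of 80 tested, 60 (75.0%) had a lower value in KO, with a median log2 difference of −0.11, while 52.2% of all 6337 promoter peaks were lower, with a median of −0.01. At the 57 promoter peaks of mitochondrial ribosomal loci 57.9% were lower, with a median of −0.03. Where the members' nearest promoter peak held the NRF1 letters, 17 of 20 were lower (median −0.20), and where it did not, 35 of 49 (median −0.09). Over all nearest promoter peaks the figures were 61.7% of 1147 with the letters (median −0.05) and 50.2% of 4442 without. These counts are a description, since neighbouring peaks and clones are shared and no test was made of a direction over the members.

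Whether the cytokine changed the loci was asked first in the control lines, 4 in GM-CSF against 24 in SCF. Cox7a2 and Ndufb7 were lower in GM-CSF and no member was higher, of 88 tested. This is 2.27% lower, beside 5.78% higher and 6.64% lower among all 12896 loci tested. The median log2 difference of the members was −0.01, against −0.005 over all loci, with 48 of 88 below 0 (54.5% against 50.6%). At an unadjusted p under 0.05 there were 17 members (19.3%) and 25.2% of all loci. Each clone was grown in 1 cytokine from its start, so clone and cytokine cannot be separated within a clone.

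Cox7a2 (chr9:79755361-79759878), the general isoform of subunit VIIa of complex IV, had 26.2, 22.9, 48.9 and 45.3 CPM in the GM-CSF control lines of clones 19, 20, 21 and 22. In SCF control lines it had 27.0 CPM at the lowest, 73.3 CPM at the median and 99.4 CPM at the highest, and 22 of 24 lay above all 4 GM-CSF lines. The log2 difference was −0.76 ± 0.19, edgeR adjusted p = 0.00172, and none of its 4 peaks is shared. Against SCF clones 23 to 29 alone it was −0.52 ± 0.22 with an edgeR adjusted p of 0.115.

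Ndufb7 (chr8:83566671-83571626), an accessory subunit of the membrane arm of complex I, had 105, 34.3, 75.3 and 43.99 CPM in GM-CSF control lines. Its SCF control lines had 57.7 CPM at the lowest, 89.8 CPM at the median and 126 CPM at the highest. The groups overlapped, and 3 of 24 SCF lines lay above all 4 GM-CSF lines. The log2 difference was −0.54 ± 0.17, edgeR adjusted p = 0.0213, and −0.20 ± 0.21 without clone 22 (edgeR adjusted p = 0.697). It did not pass with a 1 kb window (−0.28 ± 0.23, edgeR adjusted p = 0.515) or a 50 kb window (−0.13 ± 0.10, edgeR adjusted p = 0.404). Without clone 19, without clone 20 and without SCF clone 13, 2 members were lower and 0 higher, as with all clones.

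The 2 sets of SCF clones differed on the X chromosome. Relative to the median library, its share of the counts was 0.714 to 0.840 in GM-CSF libraries, 0.739 to 0.915 in SCF clones 23 to 29 and 0.961 to 1.09 in SCF clones 1 to 18. The GM-CSF libraries thus lay with SCF clones 23 to 29, and the cytokine comparison pools both SCF sets. Against SCF clones 23 to 29 alone 0 members were higher and 0 lower in control lines, and 1 was higher and 5 lower in KO lines. The part of this difference between sets in the results was not tested.

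The next members by adjusted p did not pass: Uqcc2 had −0.53 ± 0.19 (edgeR adjusted p = 0.0518), Ndufa7 had 0.35 ± 0.13 (edgeR adjusted p = 0.0609), Cox6a1 had −0.44 ± 0.17 (edgeR adjusted p = 0.074) and Ndufs8 had 0.32 ± 0.13 (edgeR adjusted p = 0.0851). With a 1 kb window Uqcc2 (−0.93, edgeR adjusted p = 0.00593) and Cox6a1 (−0.80, edgeR adjusted p = 0.0159) passed, and Ndufa7 and Ndufs8 did not. With a 50 kb window Cox6a1 (−0.36, edgeR adjusted p = 0.0168), Ndufa7 (0.31, edgeR adjusted p = 0.0127) and Ndufs8 (0.41, edgeR adjusted p = 0.000212) passed, and Uqcc2 did not. Of the 7 core subunits of complex I, 6 had values above 0 (median 0.23), and none passed with the 10 kb window. The medians of the other roles lay between −0.11 for complex III assembly and 0.15 for complex III. Ndufs4, Ndufa9, Cox4i2, Cox6a2 and Cox7b2 were removed by the filter.

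At peaks, 3 of 114 rose in GM-CSF control lines and 2 fell at an adjusted p of at most 0.01, beside 4.88% higher and 9.84% lower of 13171 peaks tested. The peak upstream of Ndufa7 had 140, 137, 60.2 and 100.0 CPM in GM-CSF control lines and 52.8 ± 10.4 CPM in SCF control lines (log2 0.90 ± 0.16, edgeR adjusted p = 3.18e-06). The promoter peak of Atp5e (chr2:174463997-174464297), shared with Prelid3b, had 8.75, 45.7, 48.9 and 60.0 CPM against 23.4 ± 7.75 CPM (1.13 ± 0.22, edgeR adjusted p = 2.24e-05). The promoter peak of Ndufs7 (chr10:80249172-80249472) had 78.7, 68.6, 41.4 and 84.0 CPM against 46.8 ± 11.5 CPM (0.60 ± 0.18, edgeR adjusted p = 0.00654). In clone 19 the Atp5e peak and in clone 21 the Ndufs7 peak lay below the SCF mean. Lower were the promoter peak of the complex III assembly factor Uqcc2 (chr17:27133788-27134088), with 8.75, 22.9, 18.8 and 18.7 CPM against 36.6 ± 8.62 CPM (−0.95 ± 0.26, edgeR adjusted p = 0.00319), and a peak 6720 bases downstream of the start of Ndufb7 (chr8:83573241-83573541), with 8.75, 22.9, 20.7 and 17.3 CPM against 41.8 ± 11.8 CPM (−1.08 ± 0.26, edgeR adjusted p = 0.000668). The promoter peak of Cox7a2 (chr9:79759651-79759951) had −0.63 ± 0.21 with an edgeR adjusted p of 0.0174, above the limit for peaks. Without clone 22, 1 peak rose and 0 fell, and under upper-quartile scaling 2 rose and 3 fell.

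In the KO lines, again 4 in GM-CSF against 24 in SCF, 3 members were higher and 5 lower in GM-CSF, of 83 tested. These are 3.61% and 6.02%, beside 4.36% higher and 5.5% lower among all 11695 loci tested. The median was −0.02 for the members and for all loci. All 8 calls rest on few libraries: the KO lines of clones 19 and 20 held 40876 and 39379 counts, where a single count is 22.2 and 22.0 CPM, and without clone 22 0 members rose and 0 fell. Without clone 21, 0 rose and 2 fell, without clone 19 3 rose and 5 fell, and without clone 20 2 rose and 6 fell. Without SCF clone 13, 3 rose and 6 fell.

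The higher loci were Uqcc1, Ndufs8 and Ndufs7. Uqcc1 had 22.2, 22.0, 91.4 and 80.9 CPM in the GM-CSF KO lines of clones 19, 20, 21 and 22 and 46.4 ± 9.20 CPM in SCF KO lines (log2 0.81 ± 0.20, edgeR adjusted p = 0.00215). The deep lines 21 and 22 lay above all SCF KO lines, whose highest was 59.1 CPM, and the shallow lines 19 and 20 each held 1 count there. Ndufs8 (chr19:3908863-3912774), a core subunit with iron-sulphur clusters, had 178, 65.9, 176 and 205 CPM against 139 ± 18.5 CPM (0.43 ± 0.14, edgeR adjusted p = 0.0248). Ndufs7 (chr10:80249121-80256794), the core subunit next to it in the electron path, had 133, 176, 100.1 and 83.3 CPM against 67.0 ± 15.5 CPM (0.56 ± 0.18, edgeR adjusted p = 0.0324). All 4 lines lay above 19 of 24 SCF KO lines at Ndufs7, but its call was lost when any 1 of the 4 clones was left out (edgeR adjusted p = 0.0651, 0.0948, 0.257 and 0.0531 without clones 19, 20, 21 and 22).

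The lower loci were Cox7a2, Atp5s, Ndufb7, Ndufc1 and Atp5mpl. Cox7a2 had 0, 43.96, 41.3 and 21.4 CPM against 67.2 ± 15.5 CPM, and 21 of 24 SCF KO lines lay above all 4 (−1.13 ± 0.25, edgeR adjusted p = 0.000524). Ndufb7 had 111, 0, 58.8 and 38.1 CPM against 89.7 ± 24.0 CPM (−0.78 ± 0.22, edgeR adjusted p = 0.0101). Both were also lower in the control lines of the same clones. In these KO lines Ndufb7 had −0.27 ± 0.30 with a 1 kb window (edgeR adjusted p = 0.644) and −0.29 ± 0.11 with 50 kb (edgeR adjusted p = 0.054). Atp5s (chr12:69724950-69744660), which encodes a coupling factor of ATP synthase, had 44.5, 87.9, 43.5 and 57.1 CPM against 87.3 ± 19.2 CPM (−0.76 ± 0.21, edgeR adjusted p = 0.00732), and all 4 of its peaks are shared. Ndufc1 (chr3:51404677-51408988), a small accessory subunit of complex I, had 0, 43.96, 52.2 and 47.6 CPM against 77.7 ± 15.7 CPM, and 23 of 24 SCF KO lines lay above all 4 (−0.69 ± 0.21, edgeR adjusted p = 0.0212). Atp5mpl (chr12:111961375-111966977), a small membrane protein of ATP synthase, had 22.2, 0, 19.6 and 9.52 CPM against 32.6 ± 8.90 CPM, and 20 of 24 lay above all 4 (−1.16 ± 0.36, edgeR adjusted p = 0.0223). A count of 0 allows up to 3 counts, which are 66.7 CPM in line 19 and 65.9 CPM in line 20, so the zeros of lines 19 and 20 do not show closed loci. The filter removed Ndufb3, Ndufaf1, Ndufa9, Ndufc2, Ndufs4, Uqcrb, Cox4i2, Cox6a2, Cox6c and Cox7b2 here.

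**Figure D4:**
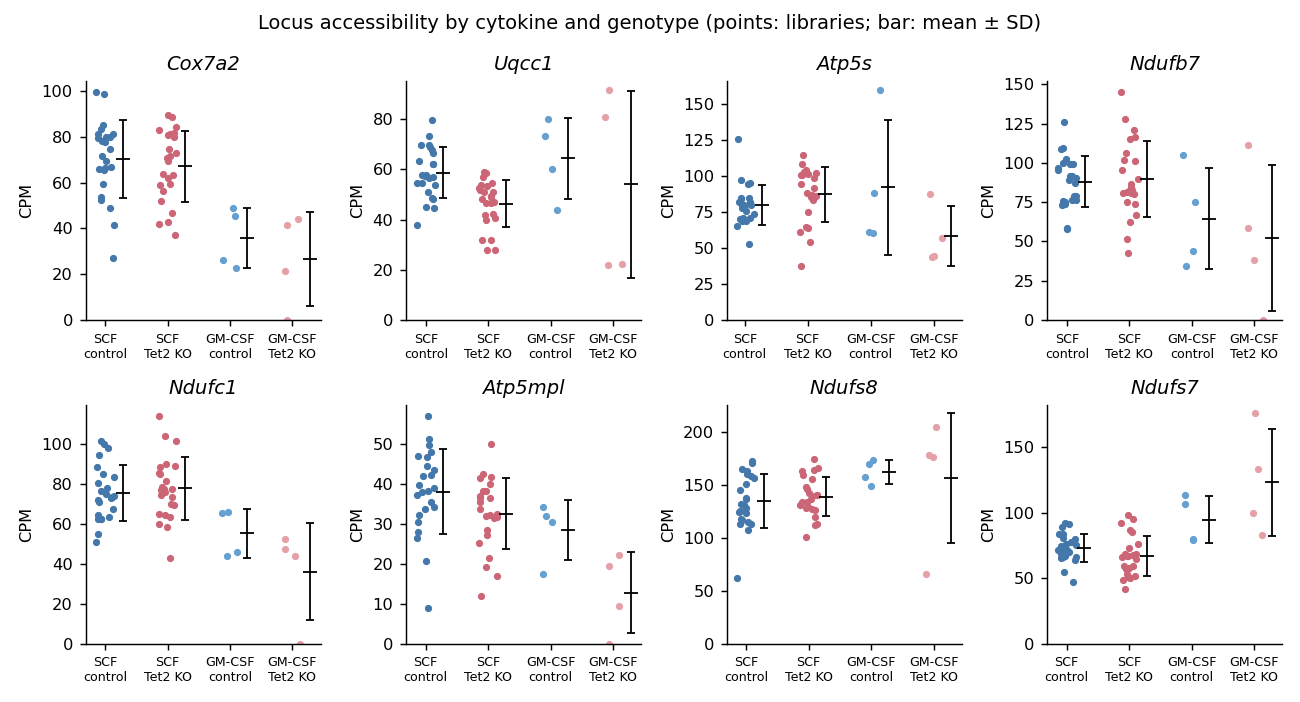
CPM (y axis, from 0) of the 8 members that differed between GM-CSF and SCF in control or KO lines; points are libraries of the 4 groups on the x axis and bars give mean ± SD. At Cox7a2 the GM-CSF libraries sit between 0 and 48.9 CPM, below most SCF libraries, and at Uqcc1, Ndufb7 and Ndufs8 the 4 GM-CSF KO libraries lie far apart.

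Markers of other cell states moved with the cytokine. The summed CPM of 8 neutrophil loci was 306 to 447 in GM-CSF control lines and 183 to 301.3 in SCF control lines, and that of 12 GMP loci was 617 to 824 against 785 to 986. The sums of 8 monocyte and macrophage loci were 194 to 332 against 232 to 357, of 8 lymphoid loci 188 to 320 against 170 to 318, and of 6 erythroid loci 274 to 359 against 261 to 375. In KO lines the neutrophil sum was 222 to 407 in GM-CSF and 170 to 296 in SCF, the GMP sum 440 to 697 and 700 to 1071, the monocyte sum 132 to 240 and 229 to 317, the lymphoid sum 111 to 219 and 159 to 332, and the erythroid sum 267 to 396 and 256 to 391. Of the neutrophil list S100a8 (log2 2.09), S100a9 (2.31), Ngp (1.37) and Ltf (1.00) were higher in GM-CSF control lines and none was lower. Lcn2 and Mmp8 did not pass, and Camp and Ly6g were not tested. Within the GMP and monocyte lists the loci moved both ways. In GM-CSF control lines Kit (log2 −1.76), Cd34 (−2.39), Mpo, Ctsg and Cebpa of the GMP list were lower and Ms4a3 (1.17), Fcgr3 and Spi1 were higher, and of the monocyte list Ccr2 (−1.49) and Klf4 (−1.10) were lower and Ly6c2 (1.74) was higher. No marker locus was at 0 over all libraries. The part of these shifts in the differences at the respiratory loci was not tested. All members together took 0.567% ± 0.0437 of the counts in SCF control lines, 0.559% ± 0.0498 in SCF KO lines, 0.529% ± 0.0633 in GM-CSF control lines and 0.492% ± 0.0530 in GM-CSF KO lines, with overlapping ranges.

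Tet2 loss was also tested within the 4 GM-CSF clones, and against its effect in the SCF clones, by a single fit to the 56 libraries. No member passed in either test, and nor did any of the 13113 loci (0% called in each direction). At an unadjusted p under 0.05 there were 6 of 87 members (6.90%) for the GM-CSF effect, beside 708 loci (5.40%), and 5 (5.75%) for the difference, beside 565 loci (4.31%). The smallest p for the GM-CSF effect belonged to Atp5d, the delta subunit of ATP synthase, with 114, 137, 151 and 153 CPM in control lines and 66.7, 22.0, 102 and 114 CPM in KO lines. The KO line was lower in 4 of 4 pairs (log2 −0.53 ± 0.20, edgeR adjusted p = 0.793), while in SCF clones the change was 0.06 ± 0.06. At Atp5d 12 of 13 peaks are shared with Cbarp or Midn, and the promoter peak nearest its TSS held 158 of its 3042 counts. The others among the 6 were Ndufaf4 (−1.03 ± 0.40), Atp5mpl (−1.07 ± 0.43), Ndufb4 (−0.92 ± 0.39), Uqcr10 (−0.75 ± 0.33) and Atp5s (−0.55 ± 0.25). For the difference between cytokines the smallest p values were at Atp5d (−0.60 ± 0.21), Atp5s (−0.73 ± 0.26), Uqcc1 (0.63 ± 0.25), Ndufaf4 (−1.03 ± 0.42), Ndufb4 (−0.86 ± 0.41) and Atp5l (0.86 ± 0.46), all with edgeR adjusted p of 0.999. Uqcc1, which fell in SCF clones, had 0.27 ± 0.23 in GM-CSF clones. Ndufaf1, Ndufs4, Ndufa9, Cox4i2, Cox6a2 and Cox7b2 were not tested here. A p that misses the threshold does not show that the clones responded alike.

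**Figure D5:**
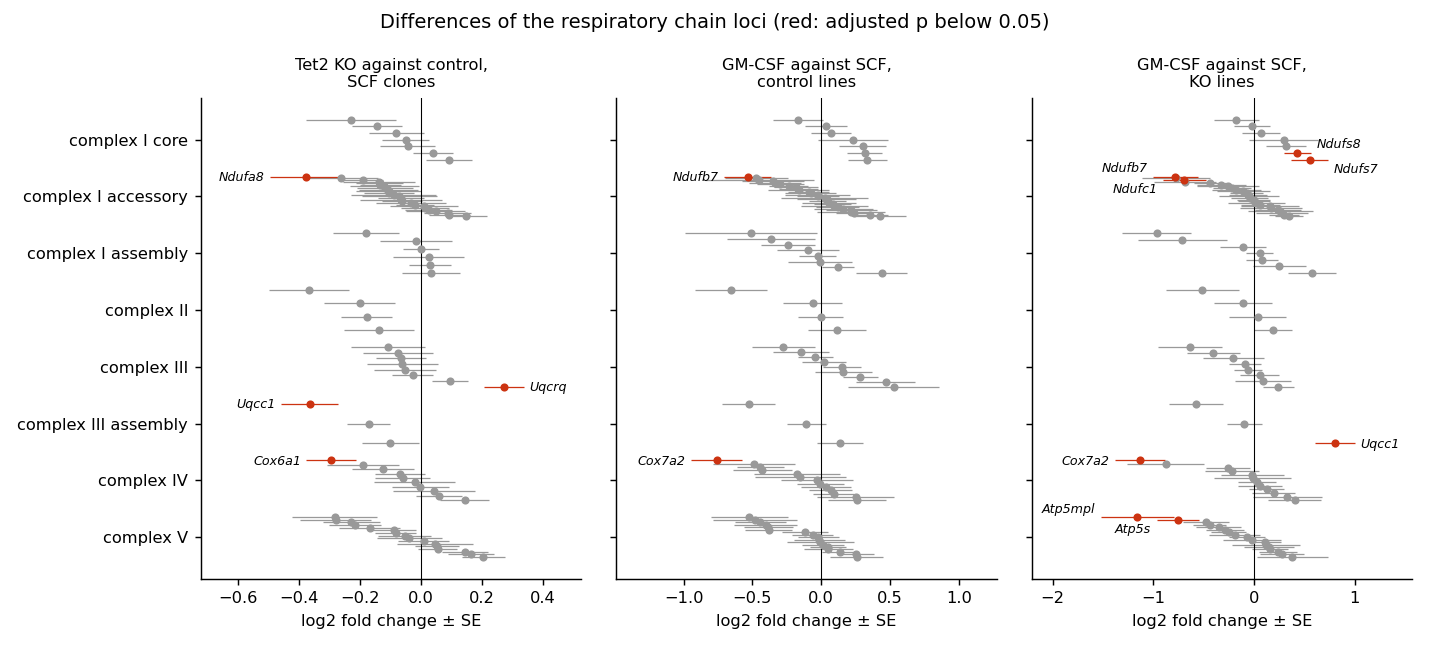
Log2 fold changes ± SE (x axis; the scales differ between panels) of the members tested, by role (y axis), for Tet2 KO against control in SCF clones and for GM-CSF against SCF in control and in KO lines. Red points with names passed an adjusted p of 0.05: 1 higher and 3 lower for KO, 0 and 2 for the cytokine in control lines, and 3 and 5 in KO lines; every other member is grey.

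Other genes of the pathway were counted from 4 lists, beside 4.77% higher and 1.45% lower of all loci for KO in SCF, 5.78% and 6.64% for the cytokine in control lines and 4.36% and 5.5% in KO lines. Of 18 regulators of respiratory genes tested, Yy1 (0.28 ± 0.06, edgeR adjusted p = 0.000541) and Sp1 (0.26 ± 0.06, edgeR adjusted p = 0.00149), both factors that bind respiratory promoters, rose in SCF KO lines and none fell. Yy1 had 152 ± 27.1 CPM in SCF control and 184 ± 26.3 CPM in KO lines. With GM-CSF in control lines Polg, the mitochondrial DNA polymerase, was higher (0.49 ± 0.13) and Tfam, which packs and transcribes mitochondrial DNA (−0.80 ± 0.22), and Creb1 (−0.47 ± 0.15) were lower. In KO lines Polg and Sp1 were higher and Creb1 was lower. Of 37 other assembly factors and electron carriers, Sco1, which delivers copper to complex IV, fell in SCF KO lines (−0.34 ± 0.11, edgeR adjusted p = 0.0493) and none rose. Of 42 tested for the cytokine in control lines, Surf1 and Coa4, both assembly factors of complex IV, were higher and Lrpprc, Bcs1l and Sdhaf3 were lower, and of 38 in KO lines Cox11, Cox14 and Lrpprc were lower and none higher.

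In the citrate cycle, which feeds the chain, Pdhb (0.35 ± 0.07, edgeR adjusted p = 0.000183), Fh1 (0.31 ± 0.09, edgeR adjusted p = 0.0125) and Mdh2 (0.23 ± 0.07, edgeR adjusted p = 0.0389) rose in SCF KO lines, of 14 tested, and none fell. Of 15 tested for the cytokine none passed in control or KO lines by edgeR. Of 65 mitochondrial ribosomal protein loci, Mrps14 (0.29 ± 0.07) and Mrpl41 (0.25 ± 0.07) rose and Mrpl30 (−0.34 ± 0.11) and Mrpl54 (−0.24 ± 0.08) fell with KO in SCF. Mrpl41 was also higher in GM-CSF control lines (0.61 ± 0.13, of 77 tested), and Mrpl41 and Mrpl45 in GM-CSF KO lines (of 73). No locus of the 4 lists passed for the KO effect in GM-CSF clones or for its difference. The medians for KO in SCF were 0.03 for regulators, −0.02 for assembly factors and carriers, 0.02 for the citrate cycle and −0.05 for the mitochondrial ribosome, beside −0.01 over all loci.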

How the data were processed

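The matrix deposited by the authors holds raw counts per peak and library, without normalization, over 297361 peaks of 301 bp. The labels name mm10, Bowtie2, SAMtools and Picard. Their versions, and whether fragments or insertions were counted, are not given in the sources used. Per the methods of the study, the peak set came from its single-cell data and ImmGen.

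Gene starts came from GENCODE vM21 (basic set; GRCm38, as mm10), and loci, peaks and promoters are as defined in the report. The counts entered edgeR 4.0.16 (quasi-likelihood test, R 4.3.3) with TMM scaling and filterByExpr (minimum count 10), on all loci or peaks, with Benjamini-Hochberg adjustment over all of them and a limit of 0.05 for loci and 0.01 for peaks. The clone was a block for the KO effect, because the labels derive both lines of a clone from 1 GMP. Over 10409 loci the deviations of the lines of a clone correlated by −0.02 to 0.18 (median 0.06), with 5 of 24 pairs above 0.1. Cytokines were compared between control lines and between KO lines and no block, as each clone has 1 cytokine. The labels name separate clones but not the donor of each, so no p-value rests on a spread between donors. The study's results give a single Tet2 fl/fl mouse for the clones, while its reporting summary names lines of both sexes. Those of the cytokine comparisons rest on the spread between clones. Those of the KO effect, and of its difference between cytokines, rest on the spread of the differences within clones. In the single fit to the 56 libraries the GM-CSF and SCF pairs share that spread. CPM use TMM factors over all 56 libraries. Floors cover counting error only, while each SE and SD also holds the spread between libraries.

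The tests were tried on simulated data. The members, the lists and the tests were chosen with earlier results of these data known. The rule named each member past the limit, the next by adjusted p where under 6 passed, the highest and lowest locus of each role, tissue-restricted isoforms, and members without a peak or removed by the filter. Motifs were counted in promoter peaks and in RefSeq promoters (GRCm38.p6, 76 of 94 members matched by symbol). DESeq2 1.42.0, limma 3.58.1, other scalings, filters, windows, GC offsets and clone sets were tried as alternatives; leaving out clone 13 was chosen after seeing the data. Some items are not reported here. Tables and figures were made in Python 3.11.15 (pandas 2.3.3, matplotlib 3.10.9, numpy 2.4.6, scipy 1.17.1).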

Additional observations from a re-analysis of the deposited data

Results flagged for a closer look

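Of 40 groups of 4 GM-CSF libraries, over 20 members named in the report, 3 held a library whose gap to its nearest neighbour was a larger part of the range than Dixon's 95% limit for 4 values. For independent values of a normal spread chance alone gives about 1 in 20. Here the same libraries recur and some hold few counts, so that rate need not hold. Ndufb4 had 0 CPM in the GM-CSF KO line of clone 19 and 19.0 to 22.0 CPM in the other 3. Ndufc1 had 0 CPM in the same line and 43.96 to 52.2 CPM in the others. That library holds 40876 counts, and 27 of the 93 members with a peak are at 0 in it. Sdha had 13.1 CPM in the GM-CSF KO line of clone 21, from 6 counts, and 22.0 to 23.8 CPM in the others, where clones 19 and 20 hold 1 count each. The part of depth was not tested.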

How the results depend on the processing

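No member locus that passed the limit changed direction under any alternative run. Among named loci that did not pass, Ndufa7 went from 0.35 to −0.26 for the cytokine in control lines with a 1 kb window, and with a 50 kb window Sdha went from −0.37 to 0.10 for KO in SCF, Atp5d from −0.53 to 0.01 for KO in GM-CSF clones and Atp5l from 0.86 to −0.15 for the difference between cytokines. Sdha passed for KO in SCF with a 1 kb window (log2 −0.43, edgeR adjusted p = 0.0385) and with upper-quartile scaling (−0.41, edgeR adjusted p = 0.0436). It also passed without clones 5, 13 and 16 (−0.46, edgeR adjusted p = 0.023), and in no other alternative. With Tet2 KO in SCF clones, Cox6a1 kept its call in 10 of 13 alternatives, Uqcrq in 10 of 13, Uqcc1 in 10 of 12 and Ndufa8 in 6 of 11. With the cytokine in control lines Cox7a2 kept its call in 15 of 16 and Ndufb7 in 11 of 16, and in KO lines from 5 of 16 (Ndufs7) to 14 of 16 (Cox7a2, Uqcc1). The causes of the changes were not tested. For KO in SCF the count of 1 higher member became 2 without the replicate block, 3 with a 50 kb window, 2 with a GC content offset, 2 without clone 13, 0 in clones 1 to 18 and 0 in clones 23 to 29, both of which hold fewer clones. The count of 3 lower members became 6 with upper-quartile scaling, 1 with DESeq2, 1 in clones 1 to 18 and 0 in clones 23 to 29. DESeq2 gave no adjusted p for Uqcc1 and Ndufa8, so it neither kept nor lost those calls. Alternatives that gave a locus no adjusted p are left out of its total above. For the cytokine in control lines, 0 higher became 2 with a 1 kb window and 8 with a 50 kb window, and 0 to 1 when single GM-CSF clones were left out. The 2 lower became 1 with DESeq2, 5 with a 50 kb window, 0 against SCF clones 23 to 29, and 1 to 2 when single GM-CSF clones were left out. They became 3 with a 1 kb window, 3 with upper-quartile scaling and 3 with the promoter share as a covariate. In KO lines, 3 higher became 1 without the filter on low counts, 1 with DESeq2, 6 with a 50 kb window, 1 against SCF clones 23 to 29, and 0 to 3 when single clones were left out, and 5 lower became 3 with DESeq2 and 0 to 6 when single clones were left out. A limma fit of all libraries with the replicate block gave 0 higher and 2 lower in control lines and 2 higher and 4 lower in KO lines. For peaks and KO in SCF, 2 higher became 0 with upper-quartile scaling, 0 with the promoter share as a covariate, 0 without the replicate block, 0 in clones 23 to 29 and 0 without clones 5, 13 and 16, and 1 without shallow clones, 1 with the GC offset and 1 in clones 1 to 18. The 1 lower became 0 with the covariate, 0 in clones 1 to 18 and 0 in clones 23 to 29. For peaks and the cytokine in control lines, 3 higher became 1 to 3 when single clones were left out, and 2 lower became 0 without the filter, 1 against clones 23 to 29 and 0 to 3 when single clones were left out. Every alternative for KO in GM-CSF clones, and for the difference between cytokines, left 0 members. Over all loci, the KO counts of 497 and 151 became 252 and 44 with the covariate, 419 and 86 without the filter, 357 and 26 with DESeq2, 394 and 84 without the replicate block, 314 and 104 with a 1 kb window, 229 and 42 in clones 1 to 18 and 12 and 0 in clones 23 to 29. The cytokine counts of 746 and 856 became 358 and 505 with a 1 kb window, 1322 and 1488 with a 50 kb window, 498 and 636 against SCF clones 23 to 29, 469 and 590 without clone 21 and 293 and 339 without clone 22. Those of KO lines, 510 and 643, became 263 and 377 with DESeq2, 215 and 417 with a 1 kb window, 947 and 1020 with a 50 kb window, 167 and 265 without clone 21 and 138 and 246 without clone 22. Over all peaks, the KO counts of 174 and 22 became 136 and 33 with upper-quartile scaling, 63 and 6 with the covariate, 52 and 6 without the replicate block, 132 and 14 without clones 5, 13 and 16, 65 and 4 in clones 1 to 18 and 0 and 0 in clones 23 to 29, and the cytokine counts of 643 and 1296 became 1240 and 735 without the filter, 408 and 834 against SCF clones 1 to 18, 421 and 814 against clones 23 to 29, 416 and 962 without clone 21 and 240 and 620 without clone 22. The peak fit for KO without a filter on low counts was not run. Depth limits the GM-CSF KO lines of clones 19 and 20 most: the median member holds 1 count in each.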

Other observations

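Libraries of SCF clones 5, 13 and 16 held more of their counts on chromosome 1 than other libraries, 1.10 to 1.20 times the median share against at most 1.06 in the other 50 libraries.

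Over the 24 SCF clones, the level of a member in the control line and in the KO line of the same clone correlated with a median r of 0.03 over 79 members, and 0.07 over all loci tested. It ranged from −0.50 at Ndufaf3 to 0.54 at Cox5b. The lines of a clone share their founder cell and the libraries differ in depth, and these values are a description.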
